A study of Drosophila melanogaster with 26 samples.

Results

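The genes described are the 3 column genes of the Drosophila neuroectoderm, ventral nervous system defective (vnd), intermediate neuroblasts defective (ind) and Drop (Dr), with the repressor brinker (brk) and the Sox genes SoxNeuro (SoxN) and Dichaete (D). They were chosen by symbol for their place in the early nervous system, and all 6 were found among the 14220 gene symbols of the expression tables. The 26 RNA sequencing libraries were made from Drosophila melanogaster embryos staged to nuclear cycles 13 to 14, with 3 embryos pooled in each. Wild type was sampled on day 1 in 3 libraries with the genotype label sfGFP-ZLD and on day 2 in 6 libraries with the label H2B-EGFP, so the wild-type genotype changes with the day. The Zf5 embryos carry the genotype label mNG-ZF5 GLC on both days, with 3 libraries on day 1 and 6 on day 2. The 8 libraries of day 3 carry the label Zld294 and have no wild type of their own day, so that genotype and day cannot be told apart there. The labels do not spell out the alleles, and nothing in them says that libraries of a group came from separate crosses or cages, so p-values measure the spread between these pools of embryos. Abundance is given in TPM, a relative unit in which reads are divided by transcript length and scaled to the same total in every library.

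In the cellularising embryo the nuclear gradient of Dorsal divides the side of the embryo into columns that will form the nerve cord. Vnd, an NK-type homeodomain protein, marks the ventral column, Ind, another homeodomain protein, the intermediate column, and Dr, the fly Msx homeodomain protein (also called Msh), the lateral column, and the more ventral factors repress the more dorsal ones. Brk is a DNA-binding repressor of Dpp (BMP) target genes that is active in the neuroectoderm, and SoxN and D are HMG-box proteins of Sox group B with overlapping roles in neural progenitors. Zelda, encoded by zld, is the maternally supplied activator that opens many early enhancers, those of neuroectoderm genes among them. Many of these genes are switched on within nuclear cycle 14, so the age of an embryo within that cycle bears on their level.

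The altered gene was measured first. The day 1 and day 2 wild types had mean zld levels of 1200 ± 248 TPM (SD, n = 3) and 936 ± 44.7 TPM (SD, n = 6). The Zf5 means were 692 ± 276 TPM on day 1 (SD, n = 3) and 532 ± 261 TPM on day 2 (SD, n = 6). Zld294 had 8.77 ± 15.5 TPM (SD, n = 8), with libraries from 0.0873 to 43.2 TPM. The libraries differ in developmental age within groups. A score over 13 genes that come on late in cycle 14, their mean log2(TPM + 1), ran from 0.0278 to 1.07 in wild type, from 0.205 to 3.21 in Zf5 and from 0.131 to 2.57 in Zld294. The same score over 13 maternal transcripts, which are cleared with time, ran from 5.22 to 7.55, from 3.72 to 7.83 and from 6.81 to 7.79. The blastoderm markers eve, run, slam and sna were at 1 TPM or more in all 26 libraries. The 12 eggshell and yolk genes of the mother summed to at most 5.69 TPM outside Zld294, where they ran from 0.866 to 28.4 TPM, with Cp15 at up to 27.6 TPM. Replicates 4 and 6 of Zf5 day 2 had the highest levels of the neuronal genes elav, nSyb, para and brp among the 26 libraries, but not of Syt1. The sodium channel gene para was at 9.38 and 11.1 TPM there, and at least 1 TPM in 3 of the 26 libraries. They had elav at 106 and 44.8 TPM, and replicate 2 had 39.2 TPM. Syt1 was at 38.0 and 60.3 TPM in them, against 104 TPM in replicate 1 of the same group. Between 8139 and 12165 genes were above 0 in a library; the number of reads is unknown, because TPM keeps no depth.

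**Figure D1:**
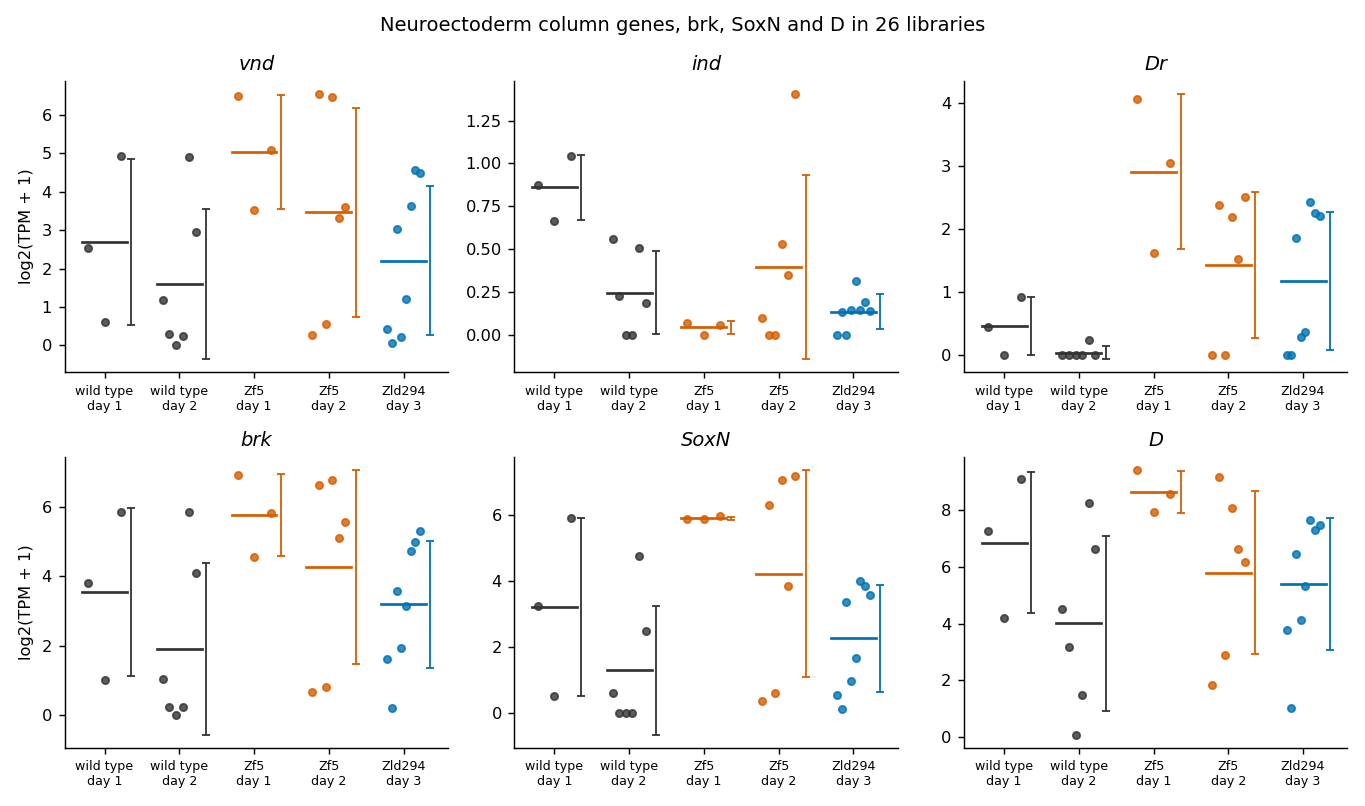
The 6 genes in each library on a log2(TPM + 1) scale, by genotype and day. Points are libraries, horizontal lines are group means and the bars beside them are 1 SD. The vertical scales differ between genes: ind never exceeds 1.65 TPM, and D reaches 683 TPM.

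The ventral column gene vnd lies on the X chromosome at 582121 to 598151 on the plus strand of BDGP6.54 (FBgn0261930). Its abundance was 4.80, 0.522 and 29.3 TPM in replicates 1 to 3 of wild type day 1, and 89.3, 10.4 and 33.2 TPM in those of Zf5 day 1. On day 2 wild type had a lowest value of 0, a median of 0.749 and a highest of 28.7 TPM, while Zf5 had 0.208, 10.1 and 91.8 TPM. In Zld294 the lowest, median and highest values were 0.0442, 4.25 and 22.9 TPM. The groups overlapped: 4 of the 9 Zf5 libraries were above every wild-type library, and none of the 8 Zld294 libraries was. By group mean the order was Zf5 day 1, Zf5 day 2, wild type day 1, Zld294 and wild type day 2, and each neighbouring pair differed by less than the larger of its SDs. The gene spdi overlaps the vnd span on the other strand without sharing exonic bases, and whether counting used the strand is not given in the sources used here.

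The lateral column gene Dr (FBgn0000492, 3R, 29556386 to 29565244, plus strand) was scarce in wild type and present in most mutant libraries. It was at 0.369, 0 and 0.892 TPM in wild type day 1, and of the 6 wild-type libraries of day 2 all but replicate 5, at 0.182 TPM, list it at 0. In Zf5 day 1 it was at 15.7, 2.06 and 7.26 TPM. These 2 groups did not overlap, and how many of all genes do not overlap there was not counted. In Zf5 day 2 the lowest, median and highest values were 0, 2.72 and 4.67 TPM, and in Zld294 they were 0, 1.47 and 4.40 TPM. Dr reached 1 TPM in 7 of 9 Zf5 libraries, in 4 of 8 Zld294 libraries and in 0 of 9 wild-type libraries. The 2 Zf5 libraries that list Dr at 0, replicates 1 and 3 of day 2, were also the lowest of Zf5 for vnd, at 0.208 and 0.484 TPM. The order of group means was Zf5 day 1, Zf5 day 2, Zld294, wild type day 1 and wild type day 2, with each neighbouring pair again closer than the larger SD.

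The intermediate column gene ind (FBgn0025776, 3L, 15042799 to 15043924, minus strand) was hardly detected at these stages. It reached 1 TPM in 2 of 26 libraries, with a highest value of 1.65 TPM in Zf5 day 2. In wild type day 1 it was at 0.833, 0.586 and 1.06 TPM. In the 3 libraries of Zf5 day 1 it was at 0.0512, 0 and 0.0425 TPM. The 2 groups lay apart, in the opposite order to Dr, at levels of 1.06 TPM or less. How many of all genes lie apart in these libraries was not counted. On day 2 wild type ran from 0 to 0.472 TPM and Zf5 from 0 to 1.65 TPM, and Zld294 ran from 0 to 0.244 TPM, all overlapping. The gene lies within the span of Sytbeta on the same strand, with no shared exonic bases; Sytbeta itself was at most 0.385 TPM.

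The repressor gene brk (FBgn0024250, X, 7307939 to 7311132, plus strand) followed vnd from library to library. Wild type day 1 had 12.8, 1.02 and 56.3 TPM, and Zf5 day 1 had 119.6, 22.5 and 55.4 TPM. On day 2 the lowest, median and highest values were 0, 0.607 and 56.5 TPM in wild type and 0.574, 39.7 and 108 TPM in Zf5. Zld294 had 0.146, 9.33 and 38.4 TPM. Of the 9 Zf5 libraries 3 were above every wild-type library, and none of the 8 Zld294 libraries was. The order of group means was that of vnd, and no neighbouring pair differed by more than the larger SD. The brk span lies inside that of CG1677 on the other strand, without shared exonic bases, and CG1677 reached 1289 TPM.

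SoxN (FBgn0029123, 2L, 8825645 to 8829670, plus strand) was at 8.43, 0.435 and 58.5 TPM in wild type day 1 and at 57.2, 57.8 and 60.8 TPM in Zf5 day 1. The SD of Zf5 day 1 was 1.94 TPM for SoxN, against 40.6 TPM for vnd and 224 TPM for D in the same 3 libraries. On day 2 wild type had a lowest value of 0, a median of 0.260 and a highest of 26.1 TPM, and Zf5 had 0.287, 45.6 and 143 TPM. Zld294 had 0.0970, 5.68 and 15.04 TPM. Among the group means, 60.9 TPM in Zf5 day 2, 58.6 in Zf5 day 1, 22.5 in wild type day 1, 6.541 in Zld294 and 5.21 in wild type day 2, only Zf5 day 1 and wild type day 1 were neighbours further apart than the larger SD, of 31.5 TPM, and replicate 3 of wild type day 1 lay inside the range of Zf5 day 1.

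D (FBgn0000411, 3L, 14175610 to 14178620, minus strand), which also acts in segmentation, was the most abundant of the 6 in 25 of 26 libraries. The exception was Zf5 day 2 replicate 6, where SoxN was higher. Wild type day 1 had 154, 17.1 and 554 TPM, and Zf5 day 1 had 683, 246 and 380.4 TPM. On day 2 the lowest, median and highest values were 0.0627, 14.8 and 302 TPM in wild type and 2.57, 84.9 and 569.9 TPM in Zf5, and in Zld294 they were 1.03, 63.2 and 202 TPM. The groups overlapped, with 2 of 9 Zf5 libraries above the highest wild-type library. By group mean the order was Zf5 day 1, wild type day 1, Zf5 day 2, Zld294 and wild type day 2, and no neighbouring pair differed by more than the larger SD. In abundance per length, brk was second among the 6 in 17 of 26 libraries, and ind alone was lowest in 13 and Dr alone in 8. In the other 5 libraries the lowest place was a tie at 0 that included Dr.

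Zf5 was compared with wild type over both days with the labelled day as a covariate, in 18 libraries, by limma on log2(TPM + 1). A gene was called at a Benjamini-Hochberg adjusted p under 0.05 over all 8151 genes tested. All 5 members tested had higher fitted means in Zf5, and Dr was the only one called. Limma gave an unadjusted p under 0.05 to 4 of the 5 members and to 2077 of the 8151 genes tested. Dr rose by 1.74 on the log2(TPM + 1) scale (SE 0.39, 95% interval 0.92 to 2.57, limma adjusted p = 0.0130). The estimate was 2.84 for SoxN (SE 1.02, interval 0.70 to 4.98, limma adjusted p = 0.10), 2.31 for brk (SE 1.03, limma adjusted p = 0.17) and 2.03 for vnd (SE 0.94, limma adjusted p = 0.19). For D it was 1.78 (SE 1.13, interval -0.59 to 4.16, limma adjusted p = 0.34). Of all genes tested, 3.1% were called higher and 2.1% lower. Dr entered the test only through mutant libraries, since it reached 1 TPM in no wild-type library, so the count of 1 member called is not read against that share; ind did not enter. In bulk embryos more cells of a type and more RNA per cell cannot be told apart, and log2(TPM + 1) understates the change of genes as low as Dr.

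**Figure D2:**
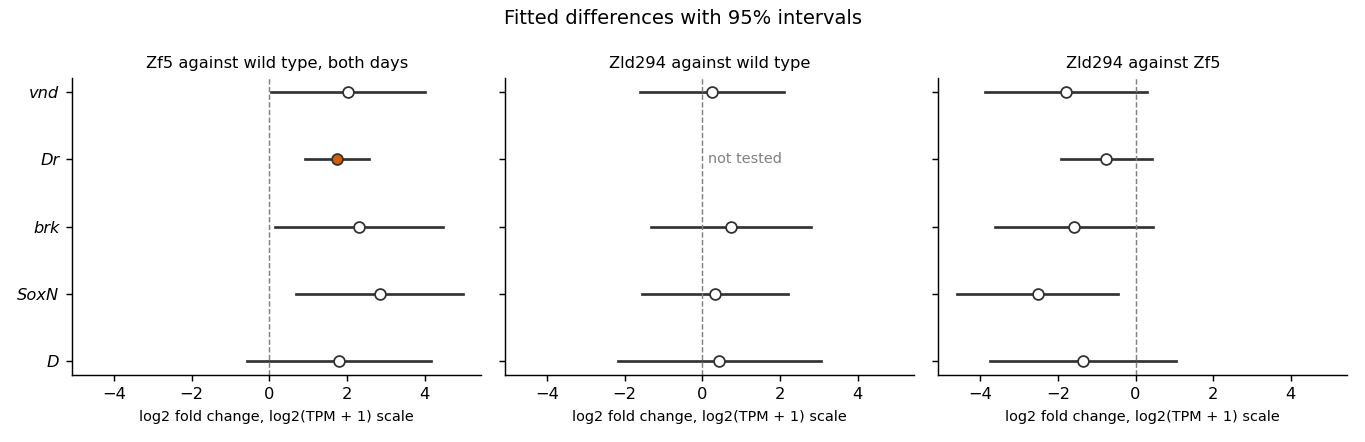
Fitted log2 fold changes on the log2(TPM + 1) scale with 95% intervals for the 5 members that could be tested. Filled points are adjusted p under 0.05 and open points are not; only Dr in Zf5 against wild type is filled, at 1.74, and Dr was not tested in Zld294 against wild type.

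Each day alone gave estimates of the same sign with wider errors. On day 1, with 3 libraries a group, Dr was higher in Zf5 by 2.45 (SE 0.65, limma adjusted p = 0.13). The other estimates were 2.35 for vnd, 2.22 for brk, 2.68 for SoxN and 1.79 for D. Limma called no member there, and 1.69% of all genes were called. It gave an unadjusted p under 0.05 to 1 of the 5 members and to 1270 of the 7172 genes tested. With no filter on low values ind was tested too, and it was lower in Zf5 on day 1 by a log2 difference of -0.82 (SE 0.11, limma adjusted p = 0.0459). That fit called 54 genes higher and 37 lower of 12199 tested, and ind was at most 1.06 TPM on day 1. With both days the difference of ind was -0.17 (limma adjusted p = 0.57). On day 2 the estimates were 1.87 for vnd, 2.35 for brk, 2.91 for SoxN and 1.78 for D. None was called by limma, beside 1.9% of all genes called. None had an unadjusted p under 0.05 in limma, beside 812 of the 6990 genes tested. Dr was too low for the filter there and gave 1.39 without it (limma adjusted p = 0.26). Whether the Zf5 effect changed from day 1 to day 2 was tested as an interaction. Limma called it for none of the 5 members tested, beside 0.478% of all genes called. No member had an unadjusted p under 0.05 in limma, beside 413 of the 8151 genes tested. The intervals were wide: that of D ran from -5.23 to 5.22 around -0.01. With no filter the interaction of ind was 0.97 (SE 0.34, limma adjusted p = 0.72), under 0.05 before adjustment, as were 566 of the 13432 genes tested.

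Zld294 was compared with the 9 wild-type libraries, which also serve as the controls of Zf5, so the 2 comparisons are not independent. None of the 4 members tested was called by limma, beside 8.29% of all genes called higher and 6.76% called lower. No member had an unadjusted p under 0.05 in limma, beside 1921 of the 6925 genes tested. The estimate was 0.24 for vnd (95% interval -1.61 to 2.09), 0.73 for brk (-1.33 to 2.79), 0.32 for SoxN (-1.56 to 2.20) and 0.43 for D (-2.18 to 3.04), with limma adjusted p from 0.65 to 0.88. These intervals hold changes of more than 1 on the log2 scale in both directions. Dr was left out by the filter; without it Dr was higher in Zld294 by 0.996 (SE 0.36, limma adjusted p = 0.095), and the 4 Zld294 libraries above every wild-type library had 2.64, 4.40, 3.77 and 3.59 TPM.

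Against Zf5, the Zld294 libraries had lower fitted means for all 5 members tested. Limma called no member, beside 6.57% of all genes called. It gave an unadjusted p under 0.05 to 1 of the 5 members and to 2040 of the 7050 genes tested. SoxN differed most, by -2.52 (SE 0.99, interval -4.60 to -0.44, limma adjusted p = 0.12), followed by vnd at -1.78, brk at -1.58, D at -1.35 and Dr at -0.75. The highest SoxN value in Zld294, 15.04 TPM, was below that of 6 of the 9 Zf5 libraries. The wild types of day 2 and day 1 differ in genotype label as well as in day. Their day 2 means were lower for vnd by -1.09, brk by -1.64, SoxN by -1.91 and D by -2.84. None was called by limma, beside 8.2% of all genes called. None had an unadjusted p under 0.05 in limma, beside 1650 of the 7160 genes tested.

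The members' estimates changed when either stage score was added to the fit. Fitting the maternal score as a covariate changed the difference between Zf5 and wild type to 0.88 for vnd, 1.02 for brk, 1.41 for SoxN and 0.58 for D, none called, and to 1.28 for Dr (SE 0.27, limma adjusted p = 0.0051). Fitting the late score turned the 4 others negative, to -1.73 for vnd, -1.90 for brk, -1.72 for SoxN and -2.32 for D, and took Dr to 0.09 (SE 0.34, limma adjusted p = 0.82). The late score ended at 1.07 in wild type, at 3.21 in Zf5 and at 2.57 in Zld294. No wild-type library matches the mutant libraries above 1.07, so late-score estimates against wild type are extrapolations in part. In Zld294 against wild type the maternal score gave higher values that were called for vnd (1.49, limma adjusted p = 0.048), brk (2.20, 0.0053), SoxN (1.70, 0.0093) and D (2.18, 0.045), and the late score gave lower values, called for vnd (-2.15, 0.023) and SoxN (-2.02, 0.044). The late genes themselves were called higher in Zf5 in 8 of 13 cases, so the late score is not independent of genotype. The 2 scores also did not order the libraries alike. Zld294 replicate 6 had a late score of 2.57 with a maternal score of 7.01, and wild type day 1 replicate 3 had 1.07 with 5.22. Equal maternal scores may therefore not mean equal age, and the part that embryo age plays in these differences was not tested.

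**Figure D3:**
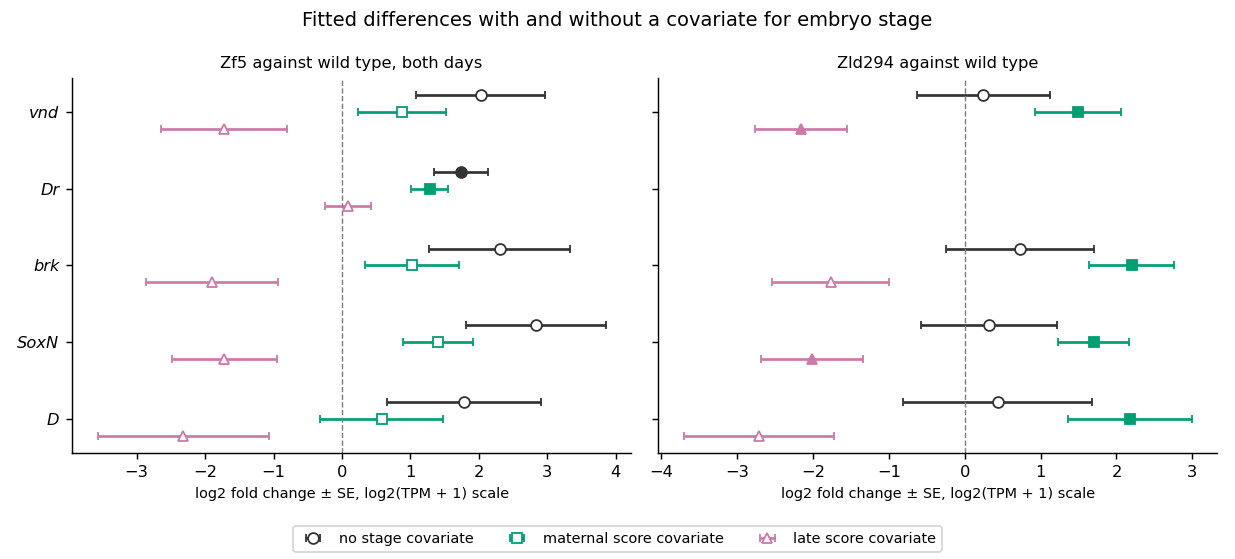
Fitted log2 fold changes ± SE on the log2(TPM + 1) scale with no stage covariate (circles), with the maternal score (squares) and with the late score (triangles). Filled symbols are adjusted p under 0.05. For vnd, brk, SoxN and D the sign with the late score is opposite to that with the maternal score in both comparisons. Late scores of both mutants ran beyond the highest of wild type, 1.07.

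Dr was also set against vnd, the column gene at the other edge of the neuroectoderm. The 2 wild-type libraries highest for vnd, day 1 replicate 3 and day 2 replicate 5, had vnd at 29.3 and 28.7 TPM and Dr at 0.892 and 0.182 TPM. The 2 Zld294 libraries highest for vnd, replicates 7 and 8, had vnd at 22.9 and 21.3 TPM and Dr at 3.77 and 3.59 TPM, and they were also the highest of Zld294 for zld, at 43.2 and 20.16 TPM. The 2 Zf5 libraries highest for vnd, day 2 replicate 2 and day 1 replicate 1, had vnd at 91.8 and 89.3 TPM and Dr at 4.18 and 15.7 TPM. In the order named, late scores were 1.07 and 0.735 in those wild-type libraries, 1.98 and 2.50 in those of Zld294 and 2.61 and 3.17 in those of Zf5. With the vnd level as a covariate, an analysis added after these values had been seen, Dr was higher in Zf5 by 1.14 (SE 0.31, limma adjusted p = 0.0275). That fit called 473 genes higher and 365 lower of 8151 tested. Dr entered it only through mutant libraries, so its call adds no support to the values above. In Zld294, with no filter on low values, Dr was higher by 0.92 (SE 0.23, limma adjusted p = 0.0104). This unfiltered fit tested 12699 genes, and how many of them it called was not counted. It too was added after the values had been seen, so its call adds no support either. With the filter, which leaves Dr out, the vnd covariate gave 1365 genes called higher and 705 lower of 6925 tested. In the same fit of Zf5, brk differed by 0.16, SoxN by 0.86 and D by -0.50, none called.

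**Figure D4:**
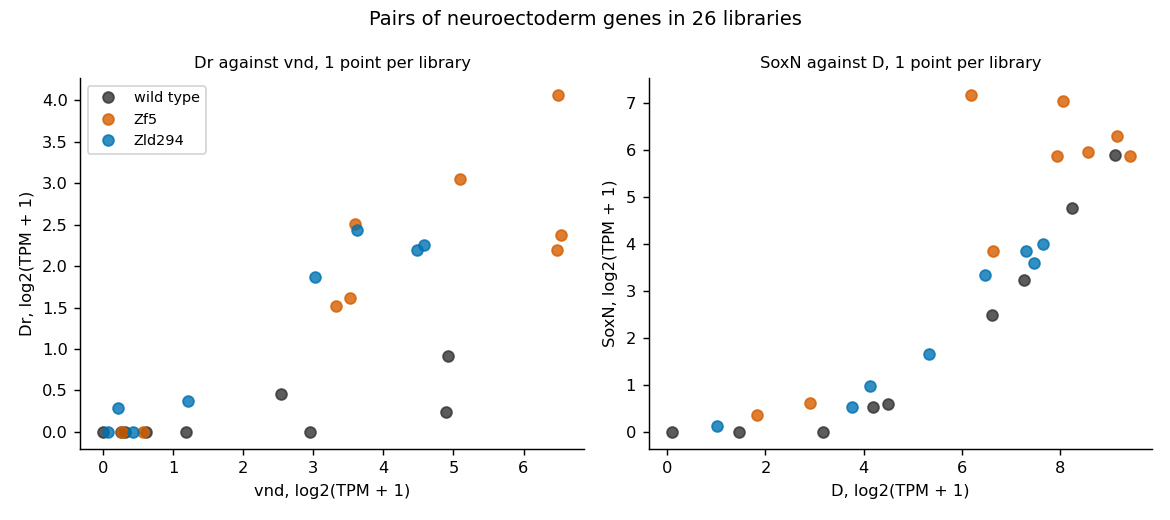
Dr against vnd (left) and SoxN against D (right), both on log2(TPM + 1) scales, with 1 point per library coloured by genotype. In the left panel the 9 wild-type libraries stay below 1 on the Dr axis, also where vnd is near 5.

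Across libraries vnd, Dr, brk, SoxN and D varied together. Over all 26 libraries Pearson's r of log2(TPM + 1) between pairs of vnd, Dr, brk, SoxN and D ran from 0.73 (Dr and D) to 0.96 (vnd and brk), and Spearman's rho for those pairs was 0.79 and 0.96. Within groups vnd and brk had an r of 0.99 over 6 wild-type libraries of day 2, 0.95 over 6 Zf5 libraries of day 2 and 0.95 over 8 Zld294 libraries. For Dr and SoxN r was 0.99 over the 6 Zf5 libraries and 0.98 over the 8 Zld294 libraries, and none is given for wild type day 2, where 5 of 6 libraries list Dr at 0. The points share embryo age and genotype, so these are descriptions only. For ind, r with the other 5 over the 26 libraries lay between 0.01 (Dr) and 0.35 (SoxN). Within groups it ran from 0.52 to 0.73 in wild type day 2, from 0.20 to 0.61 in Zf5 day 2 and from -0.01 to 0.21 in Zld294, all at levels of ind of 1.65 TPM or less.

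Among genes with a mean of at least 5 TPM, those most like each member over the 26 libraries were as follows. The closest to vnd were brk (r = 0.96), the BMP antagonist gene sog (0.96) and the head gap gene oc (0.95). The closest to brk were oc (0.98), vnd (0.96) and Mdr49 (0.95), and the closest to SoxN were oc (0.97), hth (0.95) and rpr (0.95). D was most like the gap gene gt (0.96), CG10479 (0.95) and noc (0.95). Dr had other neighbours, the Hox gene Abd-B (0.95), lmd (0.95) and dac (0.94), and the closest to ind were CG10035 (0.85), srp (0.82) and CG12581 (0.80). Abd-B is 1 of the 13 genes of the late score.

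The proneural genes ac, sc and l(1)sc were lower in both mutants. In wild type day 2, replicate 1 had sc at 84.5 TPM with vnd at 1.26 TPM, and replicate 5 had 57.4 and 28.7 TPM. In bulk embryos the tissue these transcripts came from is not known. Of 13 further neuroectoderm genes, 12 were tested in Zf5 against wild type, and 4 were called lower and 2 higher; the median log2 fold change was -0.70, against 0.01 over all genes tested. The 3 largest changes were in the achaete-scute complex, whose bHLH proteins give neuroectoderm cells the competence to become neuroblasts. The gene sc fell by 3.36 (limma adjusted p = 0.00094), ac by 2.93 (0.00088) and l(1)sc by 2.84 (0.0053). In this test too ac entered only through wild-type libraries, so its call adds no support to its values. In abundance ac ran from 0.751 to 26.2 TPM in wild type, from 0 to 0.319 in Zf5 and from 0 to 0.0508 in Zld294, with no overlap between wild type and either mutant. How many of all genes show no such overlap was not counted. For sc the ranges were 8.06 to 117, 0 to 8.65 and 0 to 5.87 TPM, and for l(1)sc they were 3.27 to 73.9, 0.0724 to 8.29 and 0.0973 to 1.78 TPM. In Zld294 against wild type 6 of the 13 were tested, 3 were called lower and none higher, with a median of -2.33 against 0.13 over all genes. The 3 called were sc at -3.60 (limma adjusted p = 6.45e-05), l(1)sc at -3.37 (0.000101) and ac at -3.04 (0.000208), and ac entered this test only through wild-type libraries. These 3 genes were called lower in both comparisons with the maternal score, the late score and the vnd level as a covariate. The other genes called in Zf5, named after their values were seen, were the FGF gene pyr, which rose by 2.79, the zinc finger gene scrt, which rose by 2.10, and wor, of the snail family, which fell by 1.15. In wild type pyr reached at most 2.93 TPM and scrt 1.16 TPM, each at 1 TPM in too few libraries for the filter. Both therefore entered the test through Zf5 libraries, and their calls add no support to their values.

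**Figure D5:**
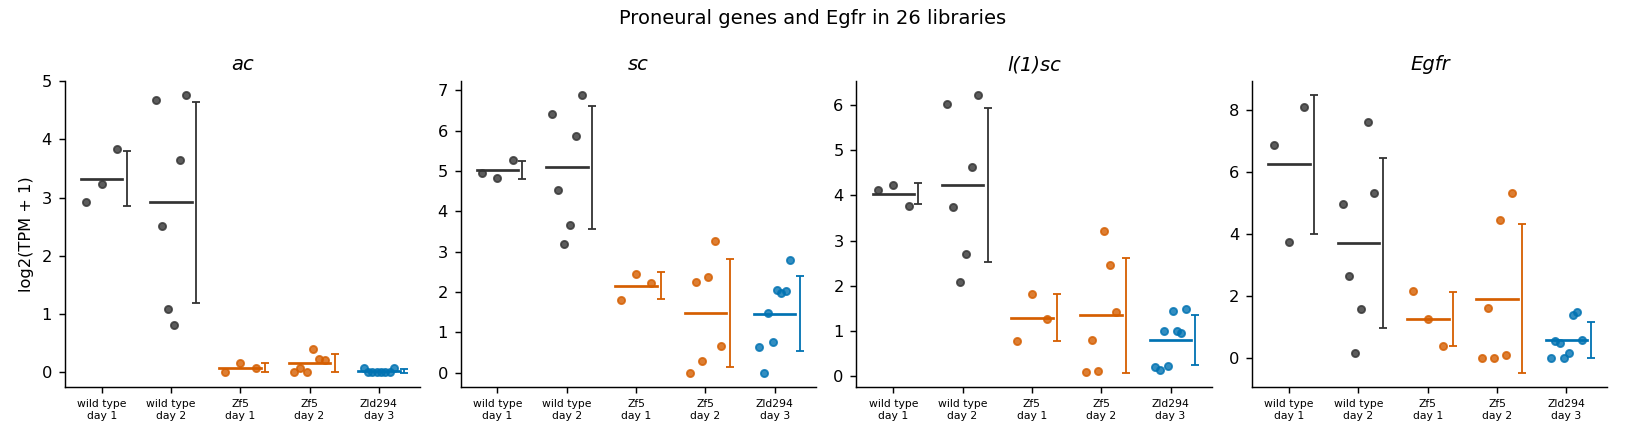
The proneural genes ac, sc and l(1)sc and the receptor gene Egfr in each library on a log2(TPM + 1) scale. Points are libraries, horizontal lines are group means and the bars beside them are 1 SD. All 17 mutant libraries lie below every wild-type library for ac, and how many of all genes lie so was not counted.

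Among 14 genes of the dorsoventral inputs, all tested in Zf5, 1 was called lower and 1 higher, with a median of 0.22. The lower one was scw, a BMP ligand gene, which fell by 5.71 (limma adjusted p = 4.41e-06), and the higher one was spi, an EGF-type ligand gene, which rose by 1.86 (0.0118; 0.099 with the late score). In Zld294, 2 of the 14 were called lower and none higher, with a median of -0.09. These were scw, by -6.20 (limma adjusted p = 3.56e-07), and the EGF receptor gene Egfr, by -3.99 (0.0066). Egfr ran from 0.119 to 275 TPM in wild type, from 0 to 38.7 in Zf5 and from 0 to 1.76 in Zld294. In Zf5 its estimate was -2.86 and missed the threshold (limma adjusted p = 0.11). The Dorsal gene dl, supplied by the mother, had a mean of 45.0 TPM ± 35.2 in wild type, 40.1 ± 62.7 in Zf5 (n = 9 each) and 54.2 ± 28.3 in Zld294 (n = 8).

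Of the 6 other Sox genes, 3 were tested in Zf5 and 1 was called. Sox21a, another group B gene, was higher in Zf5 by 1.77 (limma adjusted p = 0.0010), and it entered the test only through Zf5 libraries; its highest value was 0.212 TPM in wild type, 7.09 in Zf5 and 1.79 in Zld294. Sox14 had an estimate of 1.67 (limma adjusted p = 0.075) and Sox102F of 0.84 (0.26). In Zld294 only Sox102F was abundant enough to test, at 0.41 (limma adjusted p = 0.11). Of 12 genes known as targets of Brk repression or of Dpp, all tested in Zf5, 1 was called lower and 1 higher, with a median of 0.57. The inhibitory Smad gene Dad fell by 2.06 (limma adjusted p = 0.029; 0.49 with the late score) and the T-box gene bi was higher by 1.23 (0.024; 0.98 with the late score), having entered the test only through Zf5 libraries. In Zld294, 7 of the 12 were tested and Dad was the only one called, by -2.87 (limma adjusted p = 0.00052); the median was -0.63.

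Markers of other cells and of age moved alongside these groups. The 5 neuronal markers summed to 8.01 to 32.5 TPM in wild type, 19.1 to 162 in Zf5 and 75.6 to 167 in Zld294. In Zld294 the sum was mostly Syt1, at 75.3 to 166 TPM. There elav was at most 8.95, para 0.563, nSyb 0.266 and brp 0.256 TPM. Zf5 day 2 replicate 1 had 104 TPM of Syt1 and listed elav, nSyb, para and brp at 0. The sum is therefore not read as an amount of neurons. Replicate 4 of Zf5 day 2, the highest of Zf5, had 106 TPM of elav and 38.0 TPM of Syt1. Syt1 rose in Zf5 by 1.43 (limma adjusted p = 0.015) and in Zld294 by 2.71 (9.16e-08); elav, nSyb, para and brp had medians of at most 0.549 TPM over the 26 libraries. Among the late genes Abd-B, which reached 1 TPM in no wild-type library, was higher in Zf5 by 3.72, abd-A by 3.27 and mid by 3.11, and in Zld294 mid rose by 2.25 and slp2 by 1.83. None of the 13 maternal genes was called in Zf5, with a median of -0.98, and in Zld294 only twe was, at 0.22. Of the 8 blastoderm markers 2 fell in Zf5, bnk by 3.32 and slam by 1.70, and 3 in Zld294, bnk by 4.37, nullo by 2.43 and slam by 1.50. Without Zf5 day 2 replicates 4 and 6, a choice made after seeing the data, Dr was higher in Zf5 by 1.52 (limma adjusted p = 0.0487).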

How the data were processed

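RNA was sequenced from 26 samples of 3 pooled embryos, extracted with TRIzol and built into libraries with an NEBNext Ultra II kit, per the labels' protocols. The deposited values are TPM per gene, a unit read from the values themselves, since each column sums to 1000000 over 14220 symbols. The submitters' processing notes name kallisto, edgeR, limma and the build BDGP6, with no role for each. Because TPM keeps no depth, counting error cannot be stated, values of 1 gene depend on those of the most abundant ones, and an exact 0 is given as listed.

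Groups follow the titles and genotype labels. Values were tested with limma 3.58.1 in R 4.3.3 (lmFit, eBayes with trend) on log2(TPM + 1), over genes that reached 1 TPM in a minimum number of libraries, the size of the smallest group: 3 for Zf5 over both days, for its interaction with day, for day 1 and for the 2 wild types, 6 for day 2 and 8 for both comparisons of Zld294. The Benjamini-Hochberg adjustment ran over all genes tested. The fits were tested on simulated data. The genes described, the gene lists and the tests were chosen with earlier results of these data known. Of each list at most the 3 called genes with the largest change were named, and for each member the 3 genes most correlated with it. Alternatives were a pseudocount of 0.1, no filter, median-ratio scaling, all 26 libraries in 1 fit, 2 stage scores as covariates, a replicate block, either wild type alone and each library left out. Gene positions are those of Ensembl's BDGP6.54 annotation. Same-numbered libraries of the 2 genotypes were checked for shared deviations.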

Additional observations from a re-analysis of the deposited data

Results flagged for a closer look

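Dr in wild type day 2 stood out in 1 of the 18 sets of a member and a group of 4 to 10 libraries that were examined for a far value. Replicate 5 had 0.182 TPM, and the other 5 libraries of the group list Dr at 0. The same library had the highest vnd, brk, SoxN and D of its group. About 1 in 20 such sets is expected to show a far value by chance where values are not tied. The rule sets the gap at the end of a set against its whole range. With 5 libraries at 0, any value above 0 in the remaining one would be flagged, so that rate does not apply here. The interaction of the Zf5 effect with day passed the threshold for 0 members.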

How the results depend on the processing

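Of the members' estimates under alternatives that do not leave out 1 library, 204 kept direction and call and 44 changed sign, called or not. With the sign kept, 6 passed the threshold anew and 1 lost it. With 1 library left out these counts were 398, 35, 5 and 0. No cause of a change was tested. With the late score the differences of Zf5 from wild type over both days were -1.73 (vnd), -1.90 (brk), -1.72 (SoxN) and -2.32 (D), with 0 members called. On day 1 they were -7.40 (vnd), -1.14 (Dr), -8.00 (brk), -6.18 (SoxN) and -8.03 (D). The late score there ran from 0.201 to 1.07 in wild type and from 2.62 to 3.17 in Zf5. With no shared range, these day 1 estimates are extrapolations and do not compare embryos of equal score. Zf5 over both days, Zf5 on day 2 and Zld294 also had late scores beyond the highest of their wild type. Their late-score estimates against wild type are therefore extrapolations in part. On day 2 the differences were -1.34 (vnd), -1.33 (brk), -1.18 (SoxN) and -1.81 (D). With the late score the interaction became 0.63 (vnd) and 1.22 (D). Zld294 against wild type gave -2.15 (vnd), -1.77 (brk), -2.02 (SoxN) and -2.71 (D), 2 called lower, and -0.055 for mid. Against Zf5 it gave 0.047 (Dr) and 0.28 (D), with 1 member called lower, SoxN. Wild type of day 2 against day 1 gave 1.55 (vnd), 1.54 (brk), 1.04 (SoxN) and 0.67 (D), 2 called higher. With the maternal score 4 members were called higher in Zld294 against wild type, Zld294 against Zf5 gave 0.51 (D), 0.28 (Dr) and 0.32 (brk), the interaction gave -0.030 (SoxN) and -0.10 (brk), and the wild types gave 0.30 (vnd). The interaction of D was 0.068 with median-ratio scaling and 0.44 with a pseudocount of 0.1. Against wild type of day 1 only, Zld294 gave -0.48 (vnd), -0.37 (brk), -0.95 (SoxN) and -1.46 (D). With all 26 libraries in 1 fit, 2 members were called higher in Zf5. The choices made after seeing the data gave -0.50 for D in Zf5 with the vnd level as covariate, and, without Zf5 day 2 replicates 4 and 6, interactions of -1.20 (SoxN) and -0.82 (brk).

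The replicate block uses numbers that did not pair the libraries: 4 of 9 same-numbered pairs correlated above 0.1, in a range of -0.54 to 0.66. With the replicate block Zld294 against wild type gave -0.67 (vnd), -0.16 (brk), -0.30 (SoxN) and -0.44 (D), Dr stayed called in Zf5 at 1.74 (limma adjusted p = 0.032), the calls of spi, bi and Syt1 in Zf5 (limma adjusted p = 0.053, 0.059 and 0.077) and of Egfr in Zld294 (0.051) were lost, and 93 genes were called higher and 100 lower in Zf5 over both days.

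Leaving out 1 library at a time moved the interaction between -1.60 and 0.56 (vnd), -1.01 and 1.40 (brk), -1.10 and 1.58 (SoxN) and -1.14 and 1.33 (D). It moved Zld294 against wild type between -0.10 and 0.61 (vnd) and -0.18 and 1.06 (D), and wild type of day 2 against day 1 between -2.13 and 0.025 (vnd). Between 1 and 2 members were called higher in Zf5 over both days (SoxN too without Zf5 day 2 replicate 1 or 3), between 0 and 1 on day 1 (SoxN, without wild type replicate 3), and between 0 and 1 lower in Zld294 against Zf5 (SoxN, without Zf5 day 2 replicate 1 or 3). Dr was called in Zf5 in all 18 such fits, at 1.53 to 1.95. Among the other named genes, sc, ac, l(1)sc, scw, spi, Sox21a, Syt1, Abd-B, abd-A and mid were called in Zf5 in all 18 too, and bi in 16, slam in 12, Dad in 10 and bnk in 7 of them; Dad also missed the threshold with no filter (limma adjusted p = 0.053). In Zld294 against wild type twe was called in 12, mid in 6 and nullo in 5 of 17 such fits, and ac could be tested in 9, all called.

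Counts over all genes moved more. Genes higher and lower numbered 253 and 171 in Zf5 over both days (93 to 2538 and 100 to 1778 over alternatives), 56 and 65 on day 1 (0 to 446, 0 to 715), 51 and 82 on day 2 (15 to 2124, 25 to 1525), and 20 and 19 for the interaction (9 to 69, 7 to 78). They numbered 574 and 468 in Zld294 against wild type (212 to 1412, 307 to 1169), 165 and 298 against Zf5 (19 to 1352, 52 to 751), and 398 and 189 between the wild types (0 to 1486, 0 to 1127; 1078 genes had an unadjusted p under 0.05 in limma with the replicate block). Median-ratio scaling changed the split to 356 higher and 581 lower in Zld294 against wild type, 193 and 240 between the wild types and 179 and 183 in Zf5. Depth is unknown, so values near 0, as of ind and Dr, carry no detection limit.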
